A study of Drosophila melanogaster with 8 samples.

Results

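A set of 142 Drosophila genes had high signal in FOXO hearts at 5 weeks and in control hearts at 1 week, and low signal in FOXO hearts at 1 week and in control hearts at 5 weeks. They were chosen from the measured values. In each member the group means of FOXO 5 weeks and control 1 week both lay at least 2.5 above the group means of FOXO 1 week and control 5 weeks, on the log2 scale. Of the 11982 genes with 1 symbol, each represented by its brightest probe set (the group of probes for 1 transcript), 153 met this margin. Families with set symbol beginnings (such as Pros, Rp, Vha, Cyp and Gst, and Mst, Prot and w-cup of sperm genes) were left out, which removed 11 of the 153 and left 142, or 1.19% of the genes.

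Hearts of adult flies, female per the labels, were measured on 8 Affymetrix arrays, 2 in each of 4 groups. The groups were GMH5xFOXO at 5 weeks, GMH5xFOXO at 1 week, GMH5xyw at 5 weeks and GMH5xyw at 1 week. GMH5, which all groups carry, is a driver line for expressing transgenes in heart cells, FOXO is the transcription factor downstream of insulin signalling, and yw is a yellow white laboratory strain, called control here. Fat and pericardial cells were sucked off before the heart was lifted out, and the RNA was amplified before labelling. The labels give no number of flies per array and no measure of how strongly the transgene was switched on. The foxo probe set read 10.22 and 10.24 in FOXO 5 weeks, 10.46 and 10.87 in FOXO 1 week, 10.32 and 10.44 in control 5 weeks, and 10.68 and 10.75 in control 1 week, so it was not above control on any FOXO array at 5 weeks. The sources used here do not say whether it detects the transcript of the transgene.

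Members with a name of their own include genes known from sperm formation. In the fly testis, spermatocytes transcribe most of the genes that spermatids will need, under a set of testis-specific regulators, and store the transcripts until after meiosis. A smaller group, the cup and comet genes, is transcribed in the spermatids themselves. Spermatids then pack their chromatin with protamines, fuse their mitochondria and build a long tail, and many of the proteins involved are testis copies of enzymes that other tissues make from a sister gene.

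Several arrays stood apart from their labels or from their replicate. The yolk protein Yp1, made by the female fat body, read 13.33 and 13.19 in FOXO 5 weeks, 13.44 and 6.54 in FOXO 1 week, 13.27 and 13.16 in control 5 weeks, and 8.59 and 8.27 in control 1 week. It was thus low on replicate 2 of FOXO 1 week and on both control 1 week arrays, against the label female. FOXO 1 week replicate 1 had 10 oocyte and nurse cell transcripts at a median of 10.81, against 5.20 on replicate 2 and at most 5.13 on the other 6 arrays, and osk among them read 12.41, against 4.32. The 11 measured heart and muscle genes had medians between 11.80 and 12.38 on the 8 arrays. Among them Hand, a transcription factor of heart cells, lay between 13.04 and 13.33, and the myosin light chain gene Mlc1 between 12.92 and 13.31. Others were less even, such as mid, which lay between 6.90 and 8.69.

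Across the 142 genes the median signal was 8.85 and 8.68 on the FOXO 5 weeks arrays, 4.70 and 5.44 on the FOXO 1 week arrays, 4.68 and 4.65 on the control 5 weeks arrays, and 8.41 and 8.45 on the control 1 week arrays. The separation into 2 high and 2 low groups follows from the way the genes were chosen and is given as a description. In the low groups most of the genes lay in the dim part of the array: 122 and 95 of 142 were under the median of all probe sets on the FOXO 1 week arrays, and 125 and 129 on the control 5 weeks arrays. At most 3 were under it on any array of the high groups. FOXO 1 week replicate 2 was the low array that stood highest, with 6 genes above a signal of 8, and the other 3 low arrays had 0. In whole hearts, fewer cells that carry a transcript and less transcript per cell cannot be told apart.

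**Figure D1:**
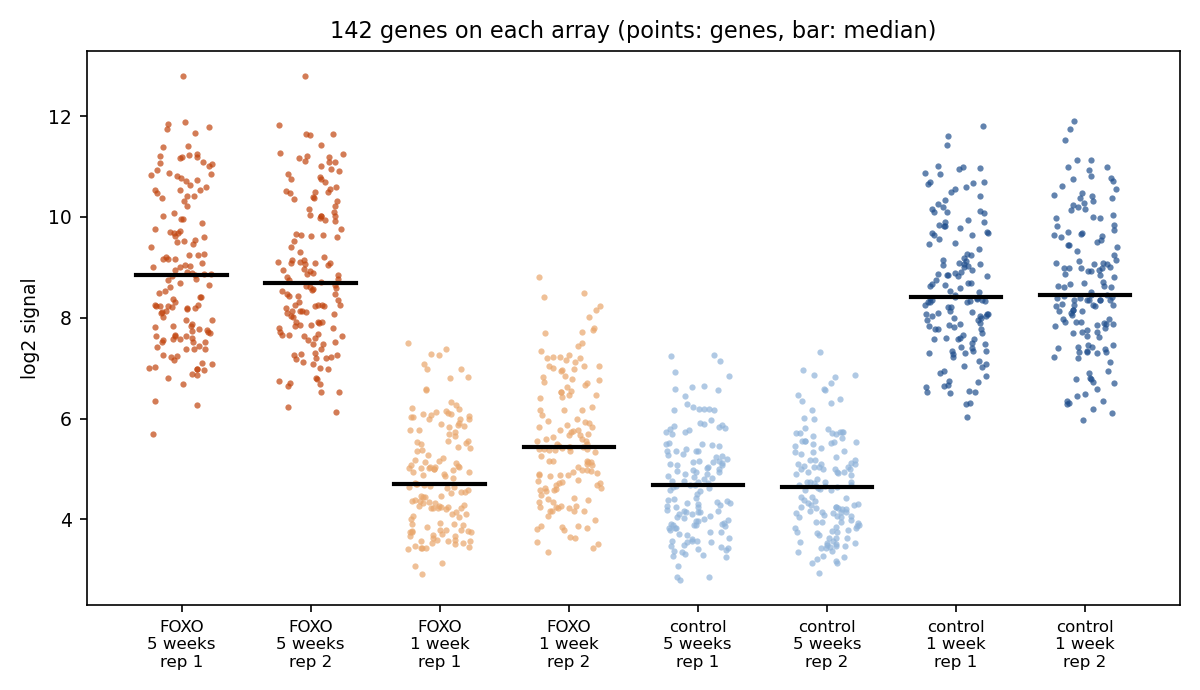
Log2 signal of the 142 genes (points) on each of the 8 arrays, with the array's median as a bar. The medians lie at 8.85 and 8.68 in FOXO 5 weeks, 4.70 and 5.44 in FOXO 1 week, 4.68 and 4.65 in control 5 weeks, and 8.41 and 8.45 in control 1 week.

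The height, the mean of the high group means minus the mean of the low group means, ranged from 2.68 to 5.20 on the log2 scale with a median of 3.85. At the edge of the set, CG4631 had the smallest margin between its lower high mean and its higher low mean (2.5), followed by CG3213 and CG9263 (both 2.52). Just outside lay CG30369 and CG31007 (both 2.47) and CG14718 (2.47). With the same rule turned round, and the same families left out by name, 0 genes were high in FOXO 1 week and control 5 weeks by this margin.

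The members with known roles are described first, beginning with enzymes of energy metabolism. Hex-t2, a hexokinase of the testis, which takes the first step of glucose use, read 8.70 and 8.48 in FOXO 5 weeks, 5.42 and 5.73 in FOXO 1 week, 5.16 and 4.92 in control 5 weeks, and 8.34 and 8.45 in control 1 week. Fum3, a fumarase of the citric acid cycle, read 9.09 and 8.62 in FOXO 5 weeks, 4.98 and 4.97 in FOXO 1 week, 4.89 and 5.04 in control 5 weeks, and 7.5 and 8.35 in control 1 week. Gpo3, a glycerophosphate oxidase that passes electrons to the respiratory chain, read 7.10 and 7.23 in FOXO 5 weeks, 3.69 and 4.68 in FOXO 1 week, 3.43 and 3.44 in control 5 weeks, and 7.42 and 7.45 in control 1 week. In all 3 the 4 high arrays lay well above the 4 low arrays, and in Hex-t2 and Fum3 both FOXO 5 weeks arrays stood above both control 1 week arrays, in Gpo3 below them. Adk1, an adenylate kinase that balances ATP and AMP, read 8.54 and 8.04 in FOXO 5 weeks, 4.05 and 4.88 in FOXO 1 week, 4.35 and 4.25 in control 5 weeks, and 8.53 and 8.84 in control 1 week. Acyp, an acylphosphatase, had the smallest height of these 5 enzymes at 3.08, against 4.10 for Adk1.

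Among members that act on mitochondria, redox state and the sperm itself, bb8, a glutamate dehydrogenase needed for the fused mitochondria of spermatids, read 9.25 and 8.93 in FOXO 5 weeks, 4.89 and 5.13 in FOXO 1 week, 4.41 and 4.32 in control 5 weeks, and 8.04 and 8.27 in control 1 week. TrxT, a thioredoxin of the male germline, read 9.70 and 9.60 in FOXO 5 weeks, 5.15 and 5.88 in FOXO 1 week, 5.70 and 5.71 in control 5 weeks, and 9.56 and 9.55 in control 1 week. The glutaredoxin Grx1t had its high arrays between 8.13 and 8.35 and its low arrays between 4.59 and 5.93. The high groups of bb8 did not overlap, whereas those of TrxT differed by 0.10 on average. S-Lap7, one of the leucyl aminopeptidases that are abundant sperm proteins, read 10.72 and 10.56 in FOXO 5 weeks, 5.54 and 6.77 in FOXO 1 week, 5.81 and 5.56 in control 5 weeks, and 9.82 and 9.84 in control 1 week. The sperm tail gene djl (don juan like) read 9.68 and 9.41 in FOXO 5 weeks, 6.09 and 6.47 in FOXO 1 week, 5.88 and 6.02 in control 5 weeks, and 9.09 and 9.14 in control 1 week. The testis genes janB and ocn, sister genes that lie side by side, had mean signals of 10.42 and 11.10 in FOXO 5 weeks, and of 10.13 and 10.61 in control 1 week.

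Regulators of translation, protein turnover and phosphorylation were also members. eIF4E5, a cap-binding translation factor, read 10.07 and 9.62 in FOXO 5 weeks, 6.0 and 6.17 in FOXO 1 week, 4.57 and 4.75 in control 5 weeks, and 8.88 and 8.93 in control 1 week. Its 4 groups did not overlap: FOXO 5 weeks stood highest, then control 1 week, FOXO 1 week and control 5 weeks. fest, which acts on the translation of cyclin B in male meiosis, read 9.55 and 8.85 in FOXO 5 weeks, 4.45 and 5.04 in FOXO 1 week, 5.11 and 4.87 in control 5 weeks, and 9.06 and 9.07 in control 1 week. sinah, a homologue of the ubiquitin ligase sina, read 8.31 and 8.32 in FOXO 5 weeks, 4.01 and 4.61 in FOXO 1 week, 4.15 in both control 5 weeks arrays, and 7.88 and 7.98 in control 1 week. The high arrays of fest overlapped between FOXO 5 weeks and control 1 week, and those of sinah did not. Ppi1, an inhibitor of protein phosphatase, and CSN1a, a copy of a subunit of the COP9 signalosome that removes the ubiquitin-like mark Nedd8, had heights of 3.21 and 3.03.

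Of the members 3 are cup and comet genes. c-cup read 7.64 and 7.59 in FOXO 5 weeks, 3.79 and 4.17 in FOXO 1 week, 3.56 and 3.92 in control 5 weeks, and 7.99 and 7.85 in control 1 week. boly read 8.17 and 7.91 in FOXO 5 weeks, 4.66 and 5.91 in FOXO 1 week, 4.87 and 4.91 in control 5 weeks, and 8.83 and 8.99 in control 1 week. In both genes the control 1 week arrays stood above the FOXO 5 weeks arrays, a difference that did not pass limma's test (adjusted p = 0.394 for c-cup and 0.207 for boly). t-cup read 7.74 and 8.10 in FOXO 5 weeks and 7.78 and 7.72 in control 1 week, which overlapped. Pif2, a binding partner of a PFTAIRE cyclin-dependent kinase, read 7.23 and 7.55 in FOXO 5 weeks, 4.54 and 5.10 in FOXO 1 week, 5.11 and 4.30 in control 5 weeks, and 9.64 and 9.69 in control 1 week, the widest gap between the high groups among the 22 members with a name of their own.

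**Figure D2:**
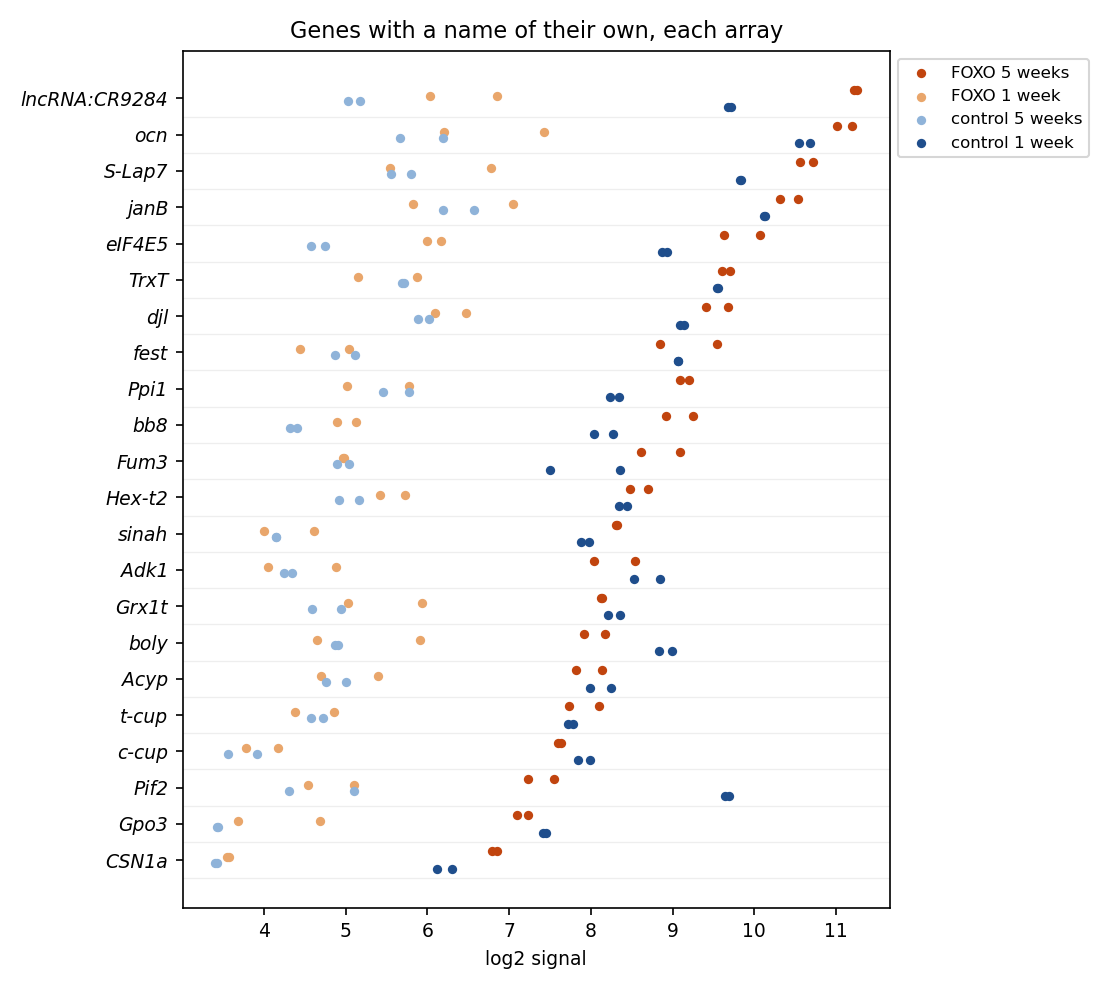
Log2 signal on each array (points, coloured by group) of the 22 members whose symbol is more than a CG number. In each gene the 4 arrays of FOXO 5 weeks and control 1 week lie above the 4 others, and in Pif2 the control 1 week arrays at 9.64 and 9.69 stand apart from FOXO 5 weeks at 7.23 and 7.55.

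Most members, 120 of 142 or 84.5%, have only a CG number for a name, against 43.6% of all 11982 genes. The choice raised the first share, since it left out 11 genes with other names that met the margin. The second share includes the families left out. The 10 with the largest height were 9 such genes and the long noncoding RNA CR9284. Its symbol, lncRNA:CR9284, also holds only a number, but it was counted among the 22 members with a name of their own. CG14294 led, at 8.61 and 8.58 in FOXO 5 weeks, 3.43 and 4.90 in FOXO 1 week, 3.57 and 3.78 in control 5 weeks, and 9.71 and 9.60 in control 1 week, a height of 5.20. CG2127 read 9.88 and 9.77 in FOXO 5 weeks, 4.63 and 6.16 in FOXO 1 week, 4.39 and 4.37 in control 5 weeks, and 9.89 and 9.74 in control 1 week. In CG2127 the high groups overlapped, and in the low groups FOXO 1 week replicate 2 stood apart from the other 3 arrays. lncRNA:CR9284 read 11.21 and 11.26 in FOXO 5 weeks, 6.03 and 6.85 in FOXO 1 week, 5.03 and 5.18 in control 5 weeks, and 9.68 and 9.71 in control 1 week. Its high groups did not overlap. CG3330 read 11.04 and 10.95 in FOXO 5 weeks, 5.51 and 7.04 in FOXO 1 week, 5.40 and 5.24 in control 5 weeks, and 10.08 and 10.28 in control 1 week. CG9016 read 11.79 and 11.65 in FOXO 5 weeks, 7.09 and 7.79 in FOXO 1 week, 6.84 and 6.30 in control 5 weeks, and 11.61 and 11.74 in control 1 week. CG8701 read 11.88 and 11.83 in FOXO 5 weeks, 7.28 and 8.16 in FOXO 1 week, 6.63 and 6.70 in control 5 weeks, and 11.80 and 11.91 in control 1 week. The high groups of CG3330 were apart, those of CG9016 and CG8701 overlapped, and in all 3 genes replicate 2 was the upper array of FOXO 1 week. CG8517, CG18449, CG1394 and CG14926 had heights between 4.68 and 4.84.

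Some members lay side by side in the genome. Among 11884 measured genes found in the Release 6 annotation, 23 of 141 members (16.3%) had another member as the nearest measured gene on one side. Of the 11743 other genes, 253 (2.15%) had a member there. These shares are a description with no test. The 23 genes formed 10 runs, of which 2 held over 2 genes: boly, CG18449, CG2127 and CG8701 in a row, and CG2291, CG12126 and CG30376. Neighbours did not always behave alike: in the second run CG12126 had mean signals of 7.04 in FOXO 5 weeks and 8.89 in control 1 week, while CG2291 had 9.28 and 8.73. Whether neighbouring sister genes such as CG17376 and CG17377 share signal through similar probes was not tested.

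Further probe sets were present for 7 members, 9 in all, which the choice did not use. CG17376 (both of its further probe sets), CG17944 and CG4270 met the margin there too: the lowest of these 4 margins was 2.82, in CG4270. The other 5 did not. The second probe set of CG17377 read between 3.02 and 3.63 on all 8 arrays, while its brighter one read 11.19 and 11.18 in FOXO 5 weeks and at least 10.86 in control 1 week. Likewise the second probe set of CG10089 lay between 4.56 and 5.21 on all arrays, both further probe sets of CG32652 between 3.25 and 4.86, and that of Gpo3 between 3.45 and 4.46. For these 4 genes the probe sets disagree, and the values given rest on the brighter one. Of the 142 probe sets used, 7 (4.93%) carry the suffix s or x, which marks probes that can match transcripts of more than 1 gene, against 9.71% over all genes.

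The first comparison sets the high groups against each other, FOXO 5 weeks against control 1 week, which the choice of genes did not compare. These groups differ in cross and in age together. Of the 142 genes 25 (17.6%) were higher in FOXO 5 weeks and 8 (5.63%) lower by limma's moderated test with a Benjamini-Hochberg adjusted p under 0.05, and 109 did not pass. Over all 18769 probe sets 6.68% were higher and 4.35% lower, 11.0% together. The median difference of the 142 genes was 0.30 on the log2 scale, between quartiles of -0.14 and 0.76, while the median of all probe sets was -0.08. Arrays of FOXO 5 weeks were all above those of control 1 week in 83 genes and all below in 33. Over all probe sets 25.9% and 38.9% did so.

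CG31948 had the largest rise, with 10.62 and 10.10 in FOXO 5 weeks, against 7.30 and 7.34 in control 1 week (log2 fold change 3.05 ± 0.26, SE, adjusted p = 0.000542). Its low arrays lay between 3.90 and 4.58. CG30039 followed with 10.59 and 10.50 in FOXO 5 weeks, against 8.07 and 7.89 in control 1 week (2.57 ± 0.20, adjusted p = 0.000432). In both genes the gap between the groups was far wider than that between replicates. CG12699 (2.07 ± 0.36, adjusted p = 0.0119), CG4546 (2.01 ± 0.19, adjusted p = 0.000836) and CG3213 (1.89 ± 0.33, adjusted p = 0.0116) rose as well. Of the 22 members counted as having a name of their own 4 rose: lncRNA:CR9284 (1.54 ± 0.25, adjusted p = 0.00916), eIF4E5 (0.94 ± 0.18, adjusted p = 0.0189), bb8 (0.93 ± 0.18, adjusted p = 0.0165) and CSN1a (0.61 ± 0.13, adjusted p = 0.0289). The 25 rises ranged from 0.61 to 3.05.

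Pif2 fell most, with a log2 fold change of -2.27 ± 0.30 (adjusted p = 0.0036). CG4073 read 5.70 and 6.14 in FOXO 5 weeks, against 8.07 and 7.98 in control 1 week (-2.10 ± 0.20, adjusted p = 0.000744). CG44433 (-1.93 ± 0.21, adjusted p = 0.00127), CG12126 (-1.86 ± 0.22, adjusted p = 0.00219) and CG33125 (-1.23 ± 0.18, adjusted p = 0.0059) fell too, and the 8 falls ranged from -2.27 to -0.85. The tallest gene, CG14294, had a value of -1.06 ± 0.42 that did not pass (adjusted p = 0.178), and CG2127 one of 0.01 ± 0.43 (adjusted p = 0.994). For the 17 other members with a name of their own, the values lay between -0.87 for boly and 0.93 for Fum3, and the smallest adjusted p was 0.087, for Ppi1.

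**Figure D3:**
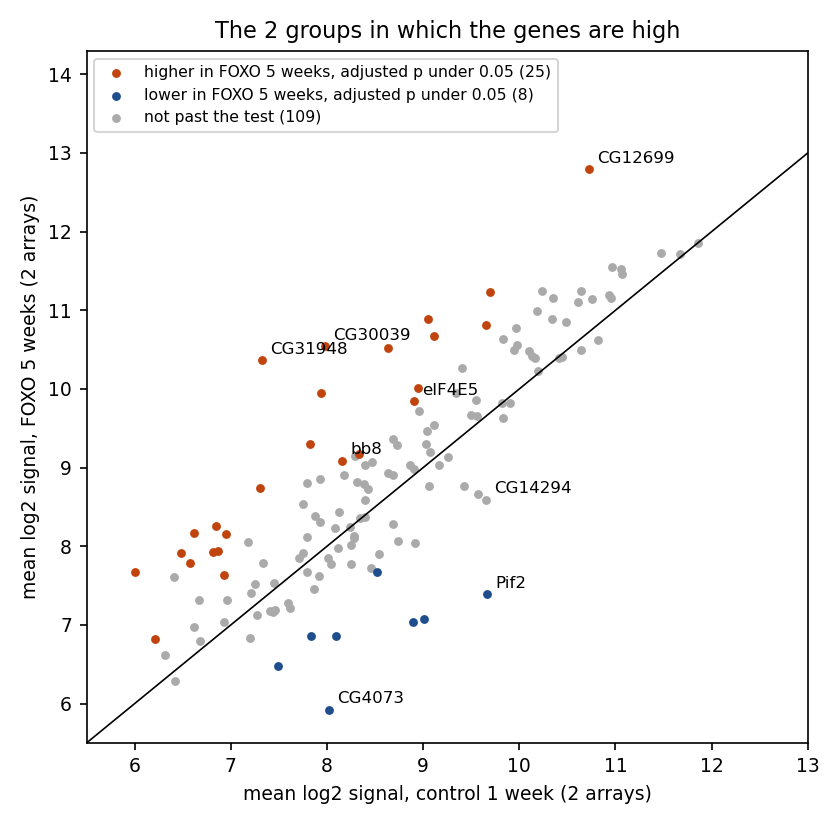
Mean log2 signal of each of the 142 genes in FOXO 5 weeks (vertical) against control 1 week (horizontal), with the line of equal values. The 25 genes higher and the 8 lower in FOXO 5 weeks by limma are coloured, with CG31948 and CG30039 far above the line and Pif2 and CG4073 far below it.

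How many of the 142 passed depended on single arrays. Without FOXO 5 weeks replicate 1, 7 were higher (4.93%, against 4.50% of all probe sets) and 6 lower, and without its replicate 2, 11 were higher (7.75%, against 4.94%) and 5 lower. Without control 1 week replicate 1, 6 were higher (4.23%, against 4.25%) and 4 lower, and without its replicate 2, 9 were higher (6.34%, against 4.23%) and 5 lower. In these fits the lone array left is assumed to vary like the other groups. The share of rises came close to that of all probe sets without replicate 1 of either group. The share of falls lay above that of all probe sets in each of these fits. Without either FOXO 1 week array, which enter this comparison only through the shared spread, 51 were higher (35.9%, against 11.2%) and 14 lower (9.86%, against 12.8%). CG31948, CG30039, CG4546, Pif2, CG4073, CG44433 and CG12126 passed under every alternative run in which they were tested. CSN1a, bb8, eIF4E5, lncRNA:CR9284, CG12699, CG3213 and CG33125 were lost without at least 1 array of the compared groups, with largest adjusted p of 0.226, 0.138, 0.135, 0.0749, 0.0867, 0.086 and 0.0578. With the array medians centred, the median of all probe sets moved to -0.28. The calls then split into 22 higher (15.5%, against 5.95% of all probe sets) and 12 lower (8.45%, against 11.8%). CSN1a did not pass there (adjusted p = 0.075), after quantile normalization (0.0955) or without either control 5 weeks array (0.0651).

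The second comparison sets the low groups against each other, FOXO 1 week against control 5 weeks, which again differ in cross and age. By limma 1 of 142 genes (0.704%) was higher in FOXO 1 week and 0 lower, while over all probe sets 0.336% were higher and 1.69% lower, 2.02% together. At an unadjusted p under 0.05 the counts were 53 higher and 1 lower, which held for 6.13% and 9.33% of all probe sets. The median difference was 0.50 on the log2 scale, against 0.01 over all probe sets, and 128 genes had a higher and 14 a lower mean in FOXO 1 week. Both FOXO 1 week arrays were above both control 5 weeks arrays in 76 genes and below them in 2, which held for 19.3% and 21.6% of all probe sets. The gene that passed was eIF4E5, at 6.0 and 6.17 in FOXO 1 week, against 4.57 and 4.75 in control 5 weeks (1.42 ± 0.18, adjusted p = 0.015). Without either array of control 5 weeks or of control 1 week eIF4E5 did not pass (largest adjusted p = 0.156), nor with array weights (0.0682) or from the 4 arrays compared (0.136). lncRNA:CR9284 (1.34 ± 0.25, adjusted p = 0.0554) and CG18449 (1.33 ± 0.25, adjusted p = 0.0557) did not pass.

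The FOXO 1 week arrays differed in this. FOXO 1 week replicate 2 was above both control 5 weeks arrays in 132 of the 142 genes (93.0%), and replicate 1 in 76 (53.5%), while over all probe sets the shares were 41.4% and 35.2%. Replicate 2 was above replicate 1 in 133 genes, by a median of 0.74, against a median of 0.09 over all probe sets. It exceeded replicate 1 by more than 1 in 40 genes (28.2%), against 5.19% of all probe sets, and the reverse held for 0 genes, against 6.72%. CG17377 read 6.13 on replicate 1 and 7.70 on replicate 2, and CG32652 read 5.14 and 6.73. Without replicate 1, 70 genes passed, all higher in FOXO 1 week (49.3%, against 3.77% of all probe sets), with a median difference of 0.88. Without replicate 2, 16 were higher (11.3%, against 12.0% of all probe sets) and 4 lower (2.82%, against 11.8%), with a median of 0.15, so the excess of higher calls was not seen with replicate 1 alone. Between replicates the median distance of the 142 genes was 0.74 in FOXO 1 week, against 0.30 over all probe sets. It was 0.21 in control 5 weeks (0.16 over all probe sets), 0.18 in FOXO 5 weeks (0.18) and 0.10 in control 1 week (0.12).

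**Figure D4:**
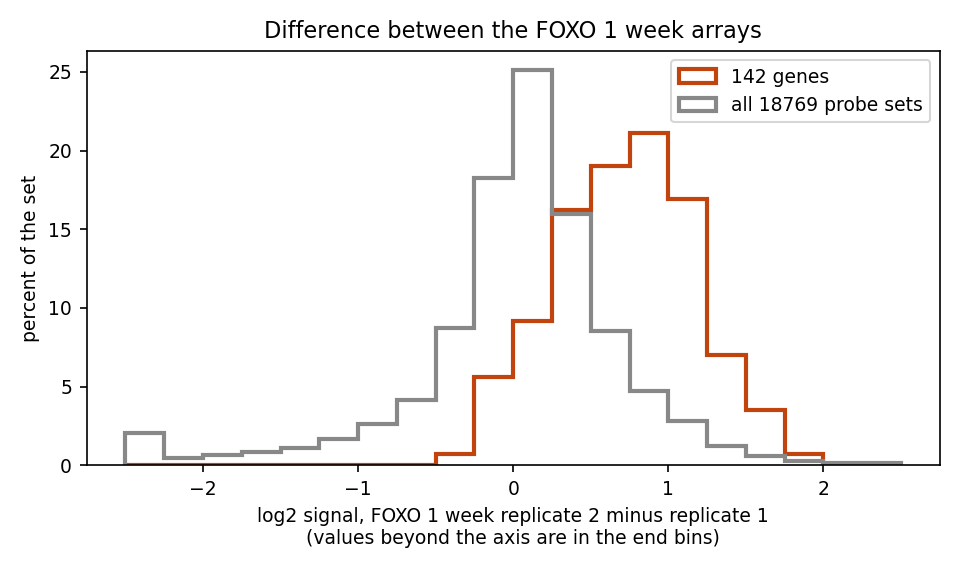
Distribution of the difference in log2 signal between the FOXO 1 week arrays, replicate 2 minus replicate 1, for the 142 genes and for all 18769 probe sets, as percent of each set. The 142 genes centre on 0.74 and all probe sets on 0.09.

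The list of sperm chromatin and tail genes also holds families left out by name. Its median was high in FOXO 5 weeks and control 1 week. This follows in part from the choice of genes, since 14 of the 25 measured met the same margin. The others varied: S-Lap5 read 4.23 and 4.54 in control 1 week, against 4.25 and 4.26 in control 5 weeks. S-Lap8 read 8.90 and 8.93, against 6.13 on both control 5 weeks arrays. Genes of the list that stood far higher in FOXO 5 weeks than in control 1 week could miss the margin in control 1 week, so the list and the 142 genes are not compared in this. The 25 measured genes of sperm chromatin and tail, 4 of them members (djl, ocn, S-Lap7 and Pif2), read 10.21 and 9.98 at the median in FOXO 5 weeks, 5.42 and 6.32 in FOXO 1 week, 5.42 and 5.28 in control 5 weeks, and 9.04 and 8.98 in control 1 week. In FOXO 5 weeks against control 1 week 13 of the 25 rose and 1 fell, Pif2, with a median of 1.24. Tpl94D, a transition protein of spermatid chromatin, averaged 9.23 ± 0.11 in FOXO 5 weeks and 6.16 ± 0.07 in control 1 week (SD, n = 2 arrays each; log2 fold change 3.07 ± 0.18, adjusted p = 0.000195 by limma). betaTub85D, the testis tubulin, rose by 3.17 ± 0.26 (adjusted p = 0.000451), and the HMG-box genes tHMG1 and tHMG2 by 3.46 ± 0.29 (adjusted p = 0.000512) and 2.97 ± 0.23 (adjusted p = 0.000403). Of the 11 genes left out for their names, ProtA (2.42 ± 0.39, adjusted p = 0.00853), ProtB (2.24 ± 0.32, adjusted p = 0.00455) and Mst77F (1.24 ± 0.31, adjusted p = 0.0472) rose, and w-cup, with means of 9.18 in FOXO 5 weeks and 10.19 in control 1 week, did not pass (adjusted p = 0.265). The 5 named Mst84D and Mst87F had means of 9.54 to 12.25 in FOXO 5 weeks and 9.28 to 12.23 in control 1 week.

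Cup and comet genes moved both ways: of 13 measured, 3 of them members, 4 rose and 2 fell in FOXO 5 weeks against control 1 week. sunz rose (2.68 ± 0.22, adjusted p = 0.000459), as did d-cup, soti and m-cup. hale fell (-1.86 ± 0.16, adjusted p = 0.000534), as did schuy (-1.47 ± 0.18, adjusted p = 0.00269). Both measured genes of the spermatid mitochondria list, which does not hold the member bb8, rose. These were fzo, the mitofusin of spermatids (1.97 ± 0.31, adjusted p = 0.0077), and knon (3.01 ± 0.17, adjusted p = 0.00019). knon read 7.93 and 8.04 in FOXO 5 weeks and between 4.52 and 4.98 on the other 6 arrays. fzo read 8.81 and 8.78 in FOXO 5 weeks and between 6.03 and 7.08 on the others, so neither was high in control 1 week. Of 7 axoneme motor and assembly genes Dic61B (1.51 ± 0.15, adjusted p = 0.000804) and Dhc62B (0.77 ± 0.16, adjusted p = 0.0217) rose. Dhc62B did not follow the sperm genes, at 6.21 and 6.33 in FOXO 5 weeks, 5.23 and 5.21 in FOXO 1 week, 6.36 and 6.34 in control 5 weeks, and 5.66 and 5.33 in control 1 week, and it fell in FOXO 1 week against control 5 weeks (-1.13 ± 0.16, adjusted p = 0.0186). The 13 measured regulators of spermatocyte transcription held none of the members and had medians between 4.08 and 4.89 on all 8 arrays. Of these, nht (0.97 ± 0.19, adjusted p = 0.0191) and vis (0.72 ± 0.17, adjusted p = 0.0372) rose. Of 7 Y-linked fertility genes ARY (1.28 ± 0.15, adjusted p = 0.00226) and kl-2 (1.36 ± 0.24, adjusted p = 0.0118) rose, and the list's median was 3.71 and 3.92 in FOXO 5 weeks, against 3.06 in both control 1 week arrays. In FOXO 1 week against control 5 weeks limma called 0 genes of the sperm chromatin and tail list (9 higher and 1 lower at an unadjusted p under 0.05) and 0 of the cup and comet list (1 and 0).

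Markers of other tissues differed between the same groups. Female-specific somatic transcripts (3 yolk proteins, Fad2 and eloF) read 13.33 and 13.19 at the median in FOXO 5 weeks, 13.44 and 6.18 in FOXO 1 week, 13.03 and 13.04 in control 5 weeks, and 6.75 and 6.59 in control 1 week. Their summed signal on the linear scale was 49882 and 49591 in FOXO 5 weeks, 52237 and 1170 in FOXO 1 week, 44124 and 44901 in control 5 weeks, and 1048 and 942 in control 1 week. So the 2 groups with high signal of the 142 genes lay at opposite ends of this list, and the FOXO 1 week replicates did too. Of 14 male accessory gland genes 8 fell in FOXO 5 weeks against control 1 week, such as Acp53Ea (-3.09 ± 0.37, adjusted p = 0.00219). Their medians were 3.85 and 3.83 in FOXO 5 weeks, 4.20 and 4.83 in FOXO 1 week, 4.10 and 4.16 in control 5 weeks, and 5.71 and 5.18 in control 1 week. Their summed signals ranged from 2546 to 3554 over all arrays. Most of each sum came from Acp95EF, which read between 11.08 and 11.41 on all arrays, so the sums say little about the other genes. For testis somatic cells the list held tj, upd1 and eya. Their median was 3.99 and 4.18 in FOXO 5 weeks and 3.98 and 4.03 in control 1 week. It was 6.95 on FOXO 1 week replicate 1, the array with high oocyte and nurse cell transcripts (median 10.81). Whether these genes mark testis cells there was not tested. Heart and muscle genes (11 measured) had summed signals of 46306 and 42250 in FOXO 5 weeks and 58674 and 55924 in control 1 week, and 4 of them fell, among them the cardiac factors H15 (-1.19 ± 0.23, adjusted p = 0.0196) and mid (-1.42 ± 0.23, adjusted p = 0.00847). Gut genes (7 measured) had summed signals of 1491 and 1899 in FOXO 5 weeks, 310 and 312 in FOXO 1 week, 1342 and 1556 in control 5 weeks, and 513 and 465 in control 1 week. In FOXO 5 weeks against control 1 week LysX, a gut lysozyme (3.37 ± 0.19, adjusted p = 0.00019), and alphaTry, a trypsin, rose and Jon44E fell, and in FOXO 1 week against control 5 weeks 5 of the 7 fell, LysX by 3.25 on the log2 scale (adjusted p = 0.000655). In FOXO 5 weeks against control 1 week 1 gene fell in each of the lists of fat body (Fbp1, of 6), hemocytes (Pxn, of 7) and neurons (elav, of 4), and 0 of 4 nephrocyte genes passed, also at an unadjusted p under 0.05. The part of these differences in the results on the 142 genes was not tested.

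**Figure D5:**
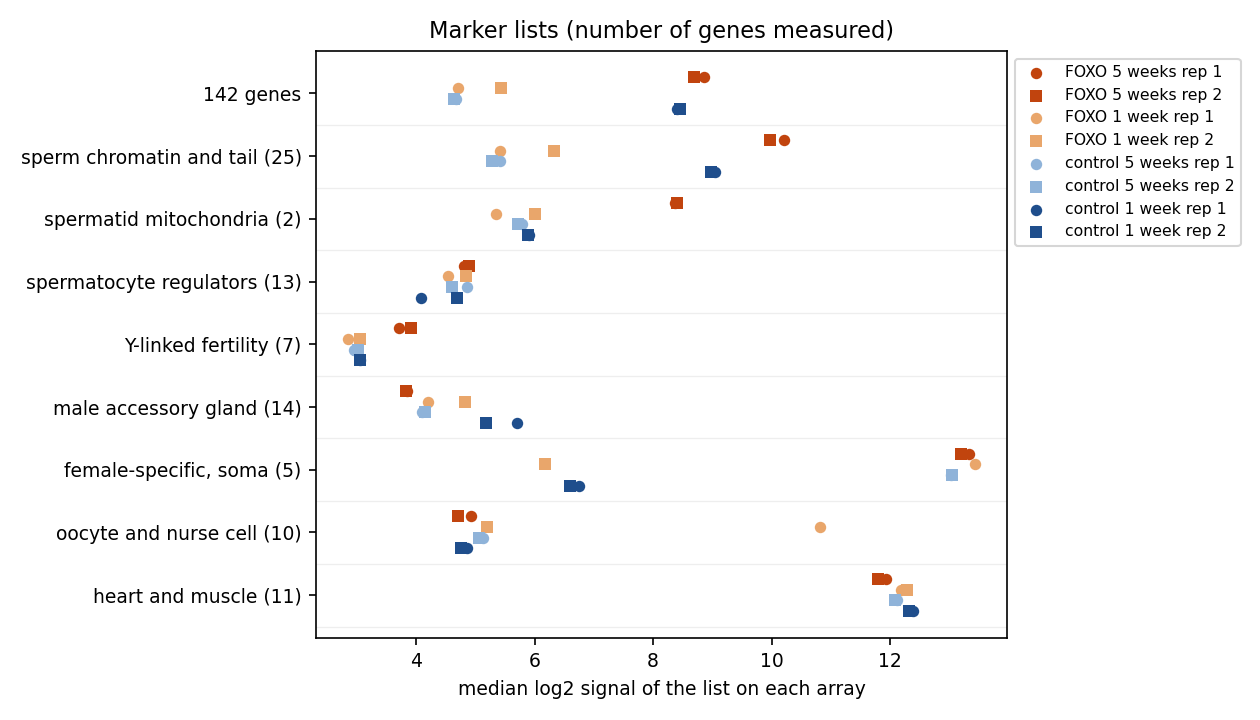
Median log2 signal of the 142 genes and of 8 marker lists on each array (circles for replicate 1, squares for replicate 2, coloured by group). The median of the sperm chromatin and tail list is high in the same groups as the 142 genes. Of its 25 measured genes 14 met the margin used to choose them. The spermatid mitochondria list, which holds fzo and knon but not bb8, is high in FOXO 5 weeks alone. The female-specific list is low on FOXO 1 week replicate 2 and both control 1 week arrays.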

How the data were processed

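Biotin-labelled, amplified cDNA of dissected hearts was hybridised to Affymetrix GeneChip arrays, per the labels' protocols. The authors deposited log2 values, 1 per probe set, between 2.14 and 14.46, and the values themselves show that scale. How they were summarised and normalized is not stated in the labels or the file. Limma is named, with no version, in the submitters' processing notes. The number of arrays, 2 per group, limits precision. Since the labels leave unsaid whether each array had its own flies, p-values reflect array-to-array spread alone, which may be technical.

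Of 18952 probe sets 183 array controls were left out. The other 18769 were tested, of which 13647 carried 1 gene symbol in the platform annotation, 402 several and 4720 none. A further 19 probe sets without a single symbol met the margin and are not named. R 4.3.3 with limma 3.58.1 fitted 1 mean per group over all 8 arrays, and p-values were adjusted over all 18769 probe sets. The FOXO 1 week replicates differed most (SD of the difference 0.83, against 0.22 to 0.30 in the other groups), which widens the shared spread. The fit was tested on simulated data. Neighbours came from RefSeq (Release 6), which held 141 of the 142 genes, and Python 3.11.15 drew the figures.

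Named are members whose symbol is no CG number, the 10 tallest, the 5 largest called differences per direction, the 3 genes on each side of the threshold, foxo, and listed genes with small p. CG17377, CG32652, CG2291, Yp1, osk, Hand, Mlc1, soti, m-cup, Fbp1, Pxn, elav and the 11 genes left out by name were named after their values were seen. The members and all gene lists were chosen with earlier results of these data known. Replicate numbers were not treated as pairs: deviations of same-numbered arrays correlated between 0.013 and 0.332, not all above 0.1. The highest value was between FOXO 5 weeks and control 5 weeks. Whether same-numbered arrays of these groups were handled together was not tested.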

Additional observations from a re-analysis of the deposited data

How the results depend on the processing

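With other rules the number of genes was 225 at a margin of 2, 81 at a margin of 3 and 94 with every array in place of the group means. It ranged from 113 to 172 with 1 array left out. For FOXO 5 weeks against control 1 week, 2069 probe sets passed (60.6% higher). With centred array medians 3340 passed (33.4% higher), without the dimmest 40% of probe sets 1355, with arrayWeights 4376, from the 4 arrays compared 4357, and between 993 and 4506 with 1 array left out. Of the 142 genes 33 passed (75.8% higher), with arrayWeights 57, from the 4 arrays 65, between 10 and 65 with 1 array left out, and 34 with centred medians (64.7% higher). With arrayWeights 31.0% of the 142 genes were higher, against 10.8% of all probe sets, and 9.15% lower, against 12.5%. From the 4 arrays 35.9% were higher, against 10.8%, and 9.86% lower, against 12.5%. The median difference of the 142 genes was 0.10 with centred medians and between 0.21 and 0.35 with 1 array left out. For FOXO 1 week against control 5 weeks, 380 probe sets passed, with arrayWeights 164, from the 4 arrays 20, and between 45 and 4468 with 1 array left out. Of the 142 genes 1 passed, 2 with trend and robust eBayes, 0 with arrayWeights (44 at an unadjusted p under 0.05), 0 from the 4 arrays (21), and between 0 and 70 with 1 array left out. The median difference ranged from 0.15 to 0.88. The cause of these shifts was not tested, apart from the smaller number of arrays or probe sets. A replicate block gave 2036 and 296 probe sets and 32 and 1 of the 142 genes, though the shared numbers were not treated as pairs in the main fit. Quantile normalization gave 2197 and 371 probe sets. Of 1256 values of the 42 members named by rule, 1160 stayed on their side of the threshold, 35 lost and 61 gained the call. Of the 1160, 41 changed sign, none of them called.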
